A study of Mus musculus with 24 samples.

Results

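The 7 genes described here belong to the renin-angiotensin system: the receptor genes Agtr2, Agtr1a, Agtr1b and Mas1, the precursor gene Agt, the converting enzyme gene Ace and the (pro)renin receptor gene Atp6ap2. They were named by symbol, out of 52636 Ensembl identifiers in the tables, because Agtr2 was among the largest rises of embryonic over adult tissue, so that the embryonic and adult values below are a description and carry no test for these genes. The study grew lacrimal gland stem cells (LGSCs) from the lacrimal gland (LG), the gland behind the watery part of tears, and set their RNA beside that of the gland. RNA sequencing of C57BL/6 mice gave 3 libraries of LG at E17.5 (E gives the embryonic day), 3 at E19.5, 3 of adult LG, and 2, 3, 3 and 3 of passage 2 LGSC spheres at culture days 5, 7, 10 and 14. The spheres came from glands of mice 6 to 8 weeks old, dissociated and grown in Matrigel with EGF, FGF10, Wnt3A and the kinase inhibitor Y-27632, and 1 further library held passage 10 spheres at day 7. In all, 21 of 24 samples were used; the others were not analysed here. The labels do not say whether replicates came from separate animals or cultures, so p-values measure only the spread between these samples.

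In the renin-angiotensin system the enzyme renin cuts angiotensinogen, the product of Agt, into angiotensin I, and angiotensin-converting enzyme, the product of Ace, trims this to angiotensin II. Angiotensin II acts on type 1 receptors, which rodents make from the paired genes Agtr1a and Agtr1b, and on the type 2 receptor made from Agtr2, a receptor known for its high level in fetal tissues and low level in most adult ones. The shorter peptide angiotensin-(1-7) acts through Mas1, and Atp6ap2 binds renin and prorenin and is also an accessory subunit of the proton pump V-ATPase.

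Agtr2 lies on chromosome X, 21484544 to 21489164 on the plus strand, Agtr1a on chromosome 13, 30336441 to 30382867 on the plus strand, and Agtr1b on chromosome 3, 20314473 to 20367177 on the minus strand (GENCODE M21, build GRCm38; the tables hold no coordinates, and the submitters' notes name NCBIM37). The 3 coding sequences are shown in part because the receptors are told apart only by sequence. The coding sequences of Agtr1a and Agtr1b, both 1080 bases long, were identical at 90.8% of bases, with a longest identical run of 66 bases, and no window of 100 bases was shared by their transcripts. Agtr1a and Agtr2 were identical at 50.2% of aligned columns. The 60 bases of coding sequence in which Agtr1a and Agtr2 are most alike follow, 5′ to 3′, from GENCODE M21 exons on GRCm38, with bases that differ from Agtr1a in capitals.
Agtr1a, chr13:30381155-30381214, plus strand: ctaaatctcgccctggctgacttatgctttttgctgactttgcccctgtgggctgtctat
Agtr1b, chr3:20316180-20316239, minus strand: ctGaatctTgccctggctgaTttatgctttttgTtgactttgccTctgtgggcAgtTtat
Agtr2, chrX:21486378-21486437, plus strand: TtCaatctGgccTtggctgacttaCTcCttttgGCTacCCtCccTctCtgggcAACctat
Agtr1b differed from Agtr1a at 7 of these 60 bases and Agtr2 at 18. The 90 coding bases in which Agtr1a and Agtr1b are least alike (coding bases 973 to 1062) hold 20 differences, again in capitals.
Agtr1a, chr13:30381926-30382015, plus strand: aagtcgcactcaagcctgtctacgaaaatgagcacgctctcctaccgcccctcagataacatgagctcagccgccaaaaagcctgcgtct
Agtr1b, chr3:20315379-20315468, minus strand: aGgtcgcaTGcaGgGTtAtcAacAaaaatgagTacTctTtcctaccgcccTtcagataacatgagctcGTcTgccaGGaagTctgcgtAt
Agtr1a and Agtr1b thus differed in both stretches.

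The values are FPKM (fragments per kilobase of transcript, scaled for library size), which puts genes on one scale. Some genes may be estimated too low, as given below, which limits comparisons of level between genes. Reads recovered from the steps of these values numbered 6434734 to 9258020 per library outside passage 10. Adult replicates 1 and 2 stood apart: their 10 most abundant genes took 60.4% and 59.6% of reads (31.3% in adult replicate 3, at most 8.1% elsewhere), and their recovered reads were 2.667 and 2.567 times the scale of the deposited values, against 0.832 to 1.129 in all libraries other than these 2. Scaling every library to its recovered reads instead moved the median gene of the embryonic to adult comparisons by 0.55 (E17.5) and 0.49 (E19.5) on the log2 scale, so both scales are given where they part. An exact 0 can be a failed estimate in these tables, since Gapdh and Mki67 were listed at 0 in all 20 libraries of passage 2 and tissue; such a gene is called listed at 0. Acinar markers were uneven in adult LG. Lyz2, which myeloid cells also express, stood at 97.3 to 193 FPKM, Ltf at 0.961 to 6.65 and Aqp5 at 0.472 to 0.568. The acinar marker Bhlha15 and the epithelial markers Epcam and Krt8 were listed at 0 in all 20, as Gapdh was, so these zeros say nothing about the tissue. The epithelial list still summed to 757 to 1084 FPKM in adult LG, from Cdh1 and Krt18.

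Agtr2, the type 2 receptor, was among the most abundant transcripts of embryonic LG and was at or near 0 everywhere else. At E17.5 it stood at 651.4, 655.0 and 649.5 FPKM (652.0 ± 2.79, SD, n = 3), behind which lay 16857, 20997 and 17286 reads, and it ranked 67th of the 12956 genes whose mean reached 1 FPKM. At E19.5 it stood at 443.2, 434.6 and 526.6 FPKM (468.1 on average), rank 141 of 12784. In adult LG it was listed at 0 in replicates 1 and 2 and stood at 0.434 FPKM (11 reads) in replicate 3. Of the 11 passage 2 sphere libraries, 10 listed Agtr2 at 0 and day 5 replicate 2 held 1 read (0.0443 FPKM); passage 10 also listed 0. No embryonic value came near an adult or a sphere value. On the log2(FPKM + 1) scale, which understates changes from low values, the mean difference from adult LG was 9.18 (SE 0.17) at E17.5 and 8.70 (SE 0.17) at E19.5, the contrast by which the gene was chosen; with 1 tissue library left out at a time the E17.5 value ran from 9.09 to 9.35. In whole tissue, fewer cells of a type and less RNA per cell cannot be told apart.

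Mesenchyme markers were higher in embryonic than in adult LG, as Agtr2 was, and so were those of 4 other cell types. The 8 markers of mesenchyme or fibroblasts (Col1a1, Col1a2, Col3a1, Pdgfra, Dcn, Lum, Twist1, Twist2), all detected, summed to 4892 to 5866 FPKM in the 6 embryonic libraries, 171 to 345 in adult LG and 0.597 to 3.53 in passage 2 spheres. Of 12 marker lists, 5 had embryonic sums above all adult sums. The other 4 were mast cell (1683 to 3875 FPKM against 32.4 to 121), adipocyte (63.5 to 140 against 8.77 to 37.9), pericyte or vascular smooth muscle (46.6 to 75.2 against 10.6 to 27.8) and skeletal muscle markers (5.25 to 32.7 against 0.503 to 2.15). In passage 2 spheres mast cell and skeletal muscle markers were low, at most 6.5 and 0.945 FPKM in sum. Pericyte markers reached 61.0 FPKM (day 14 replicate 3) and adipocyte markers 68.6 (day 10 replicate 2). These highest sums came nearly all from Rgs5 (60.75 FPKM) and Fabp4 (68.41 FPKM), respectively. The presence of pericytes or adipocytes in spheres cannot be read from such sums, and neither can a relation to Agtr2. The part of these cell types in the Agtr2 difference was not tested. Within the embryo the mesenchyme marker sum covered the same range at both ages (4912 to 5774 at E17.5, 4892 to 5866 at E19.5).

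**Figure D1:**
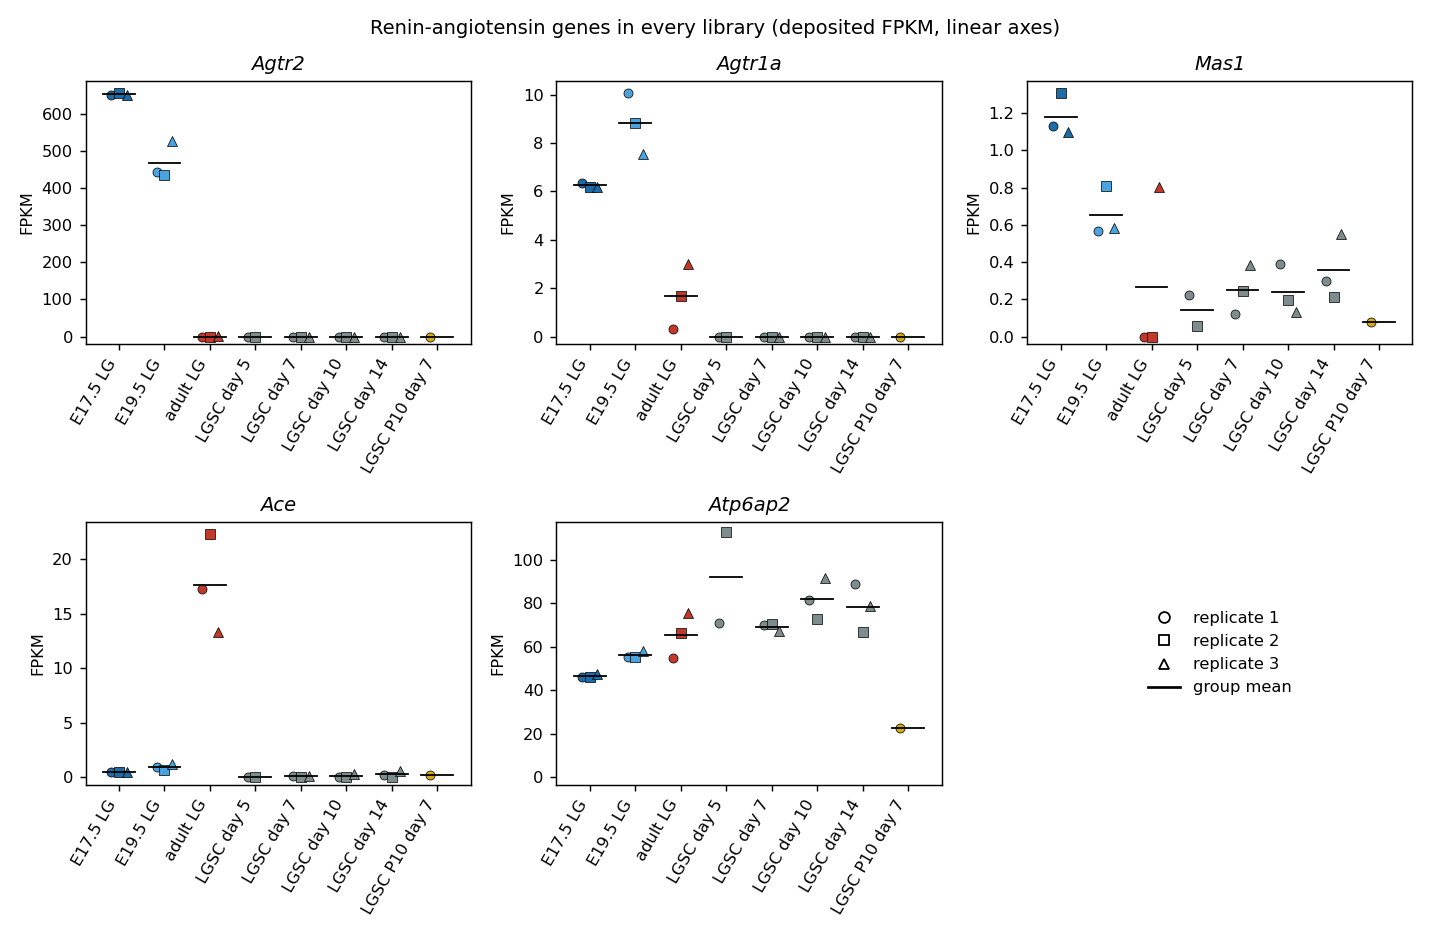
FPKM (linear axes) of the 5 genes with more than a few reads, in every library, grouped on the x axis; points are libraries, marker shape gives the replicate number, and lines are group means. Agtr2, Agtr1a and Mas1 are highest in embryonic LG, Ace in adult LG at 13.3 to 22.3 FPKM, and Atp6ap2 is above 40 FPKM in every library but that of passage 10, at 22.5.

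Agtr2 was lower at E19.5 than at E17.5 without overlap, 1.39 times on average (1.51 times per recovered reads). This contrast had no part in choosing the gene. In the fit over all 9 tissue libraries (limma on log2(FPKM + 1), Benjamini-Hochberg adjustment over all genes), the log2 difference was -0.48 (95% interval -0.88 to -0.09, n = 3 and 3), with adjusted p = 0.226, short of the threshold of 0.05. In that comparison 323 of 18578 genes (1.74%) passed; at E19.5, 207 were higher and 116 lower, or 83 and 87 on recovered reads. The spread of the fit included adult LG: without adult replicate 3 the adjusted p for Agtr2 was 0.0196, and in a fit of the 6 embryonic libraries alone it was 0.0289 (0.0196 to 0.799 over 15 alternatives). Skeletal muscle markers were the 1 list of 12 that lay lower at E19.5 without overlap (5.25 to 6.84 FPKM against 10.6 to 32.7 at E17.5), and 9 lists lay higher; their part in the differences between the embryonic ages was not tested.

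Agtr1a, a type 1 receptor, was also highest in the embryo, at a level far below Agtr2. It stood at 6.37, 6.18 and 6.19 FPKM at E17.5 (138 to 166 reads) and at 10.1, 8.82 and 7.55 FPKM at E19.5 (165 to 245 reads). Adult LG held 0.298, 1.70 and 3.01 FPKM, resting on 2, 15 and 64 reads, and all 12 sphere libraries, passage 10 included, listed 0. The embryonic groups lay above adult LG without overlap, by 1.59 (SE 0.35) and 2.02 (SE 0.35) on the log2(FPKM + 1) scale. The spread among the adult libraries bears on these sizes: without adult replicate 3, the highest, the Agtr1a differences were 1.95 and 2.38, and without adult replicate 1, the lowest, 1.14 and 1.57. The 2 embryonic groups did not overlap either, E19.5 being 1.41 times higher on average, but the log2 difference of 0.43 (95% interval -0.38 to 1.24) did not pass (limma adjusted p = 0.66).

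Between day 7 spheres and adult LG, a contrast not used to choose the gene, Agtr1a did not pass. The 3 sphere values were listed at 0, which can be a failed estimate. Agtr1a entered the fit through its adult values alone and could be called only as lower. The size of the difference thus depends on the pseudocount. The log2 difference was -1.27 (95% interval -2.24 to -0.30, n = 3 and 3) with limma adjusted p = 0.0507, in a comparison where 6238 of 17698 genes (35.2%) passed, 2507 higher and 3731 lower in spheres (5410 and 1882 on recovered reads). It passed with a pseudocount of 0.1 (adjusted p = 0.0179), with limma-voom on recovered reads (0.0122) and without adult replicate 1 (0.00637), over a range of 0.00637 to 0.136; without adult replicate 3 it lay under the filter of 0.5 FPKM and could not be fitted.

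Agtr1b, the other type 1 receptor gene, rested on 1 or 2 reads a library. It held 2 reads in adult replicate 3 (0.122 FPKM), 1 read in E17.5 replicate 3 (0.0582 FPKM) and 1 each in E19.5 replicates 1 and 2 (0.0533 and 0.0518 FPKM). It was listed at 0 in the remaining 17 of 21 libraries. Since Agtr1a held up to 245 reads in the same libraries, nearly all type 1 receptor reads were assigned to Agtr1a, under a counting whose treatment of reads shared between genes is not given in the sources used here.

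Mas1, the receptor of angiotensin-(1-7), was low throughout and highest at E17.5. It lies on chromosome 17, 12841079 to 12868143 on the minus strand, within the region of the antisense transcript Airn, with which it shares no exon base; Airn itself was at 0.0623 to 1.69 FPKM, and the tables do not state whether strand was used. E17.5 LG held 1.13, 1.31 and 1.10 FPKM (23 to 33 reads) and E19.5 LG 0.567, 0.807 and 0.584 FPKM (12 to 19 reads). The groups did not overlap, and the log2 difference of -0.40 (95% interval -0.92 to 0.13) did not pass (limma adjusted p = 0.48). Adult replicates 1 and 2 listed 0 while replicate 3 stood at 0.801 FPKM (16 reads), within the E19.5 range. Spheres of passage 2 held 0.0563 to 0.551 FPKM, 1 to 12 reads per library, with no order by culture day beyond the overlap of the groups.

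Agt, the gene of the precursor angiotensinogen (chromosome 8, 124556534 to 124569706, minus strand), was listed at 0 in all 21 libraries. Ren1, the renin gene, was at most 0.377 FPKM, with 0.310, 0.376 and 0.377 FPKM at E17.5. It was listed at 0 in adult replicates 1 and 2 and stood at 0.158 FPKM in adult replicate 3. Substrate and enzyme at the head of the pathway were thus listed at 0 or near it in tables where the receptor Agtr2 reached 655.0 FPKM. A listed 0 or a low value can be a failed estimate here, so the absence of their RNA cannot be read from these values.

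Ace ran the other way from the receptors. It lies on chromosome 11, 105967945 to 105989964 on the plus strand, and 295 of its 5287 exon bases overlap the antisense gene Gm11651 (at most 0.543 FPKM). Adult LG held 17.2, 22.3 and 13.3 FPKM (220, 374 and 537 reads), E17.5 LG 0.486, 0.471 and 0.449 FPKM (19 to 24 reads) and E19.5 LG 0.973, 0.673 and 1.21 FPKM (32 to 50 reads). Adult LG was above both embryonic groups without overlap, 37.6 times the E17.5 mean and 18.5 times the E19.5 mean as deposited, or 18.7 and 10.1 times per recovered reads. On the log2(FPKM + 1) scale the embryonic differences were -3.64 (SE 0.19) and -3.24 (SE 0.19), described without a test. Between the embryonic ages Ace was 2.03 times higher at E19.5 without overlap, a log2 difference of 0.40 (95% interval -0.04 to 0.84) that did not pass (limma adjusted p = 0.385).

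Endothelial cells are a well-known site of ACE. The 6 endothelial markers summed to 141 to 177 FPKM at E17.5, 181 to 231 at E19.5 and 70.6, 95.1 and 210 in adult LG, most of it from Cdh5, Tek, Tie1 and Emcn, while Pecam1 and Kdr stood at no more than 0.737 and 0.314 FPKM. Endothelial sums and Ace were thus both higher at E19.5 than at E17.5 without overlap, while embryonic and adult sums overlapped. Within adult LG, replicate 3 had the highest endothelial sum and the lowest Ace value as deposited. Per recovered reads Ace (6.47, 8.69 and 12.1) had the order of the deposited endothelial sums, which were not themselves put on recovered reads. Of the acinar markers, Aqp5 (at most 0.0667 FPKM in embryonic LG, 0.472 to 0.568 in adult LG) and Ltf (at most 0.0369 against 0.961 to 6.65) were higher in adult LG without overlap, as Ace was, and Lyz2 (73.7 to 120 against 97.3 to 193) overlapped. The part of these cell types in the Ace differences was not tested.

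**Figure D2:**
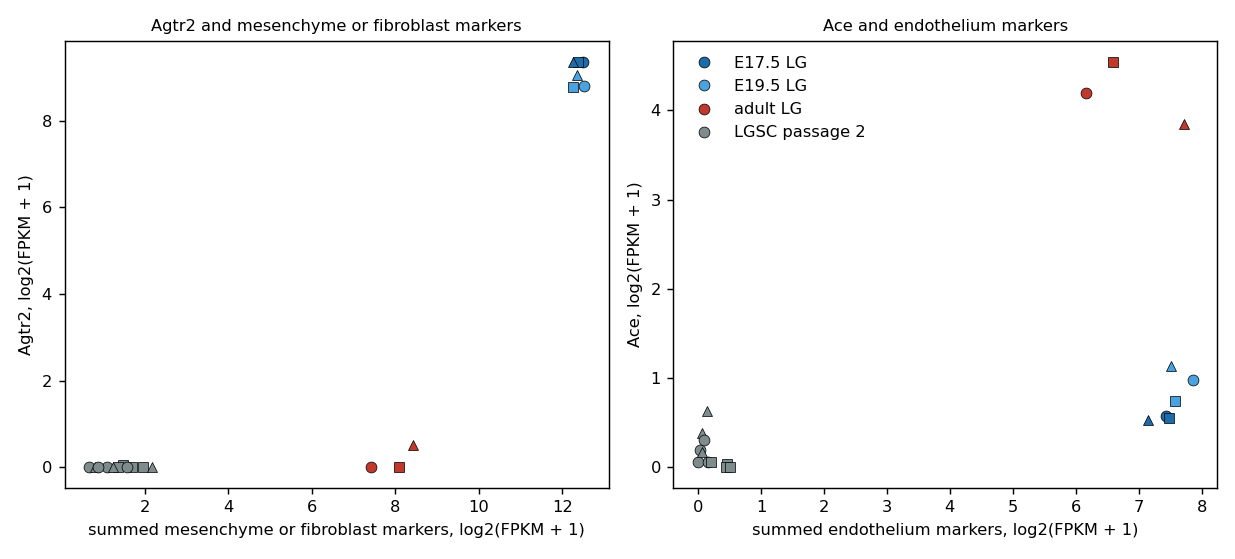
Agtr2 against summed mesenchyme or fibroblast markers and Ace against summed endothelial markers, all as log2(FPKM + 1), for the 20 libraries of tissue and passage 2 spheres; each point is a library, and marker shape gives the replicate number. Agtr2 is high only in the 6 embryonic libraries, whose mesenchymal sums are 4892 to 5866 FPKM; Ace is 13.3 to 22.3 FPKM in adult LG and at most 1.21 in embryonic LG, with endothelial sums of 70.6 to 210 and 141 to 231 FPKM.

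Ace was lower in spheres than in the gland they came from. Day 7 spheres held 0.143, 0 and 0.127 FPKM (7, 0 and 6 reads), all below adult LG, and the log2 difference was -4.07 (95% interval -4.64 to -3.50, n = 3 and 3; limma adjusted p = 0.000164), in a comparison where 35.2% of genes passed and 21.1% passed lower in spheres. Ace reached the filter of 0.5 FPKM in this fit through its adult values alone and could be called only as lower. Endothelial markers were at no more than 0.419 FPKM in sum in any passage 2 sphere library. Over the other culture days Ace stayed under the level that could be tested: day 5 libraries held 0.0445 and 0.0279 FPKM, those of day 10 held 0.0428, 0 and 0.306, and those of day 14 held 0.233, 0.0425 and 0.546.

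Ace in spheres was ordered in part by replicate number. Replicate 2 libraries held 3 Ace reads over 4 days (0 to 0.0425 FPKM), replicate 1 libraries 22 reads over 4 days, and replicate 3 libraries 44 reads over 3 days. Across all genes, same-numbered spheres of different days deviated together (correlations of 0.26 to 0.72), and replicate 2 was the lowest in Ace on all 4 culture days. This difference was not tested. Passage 10 spheres held 0.231 FPKM of Ace.

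**Figure D3:**
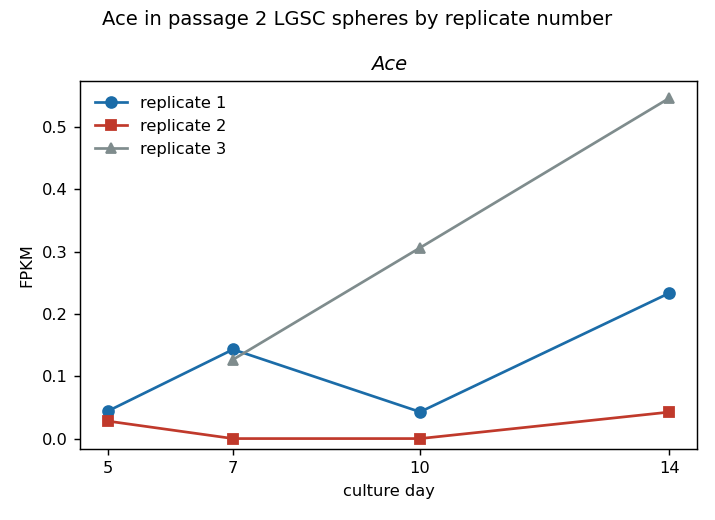
FPKM of Ace (y axis, linear) against culture day (x axis) in the 11 passage 2 sphere libraries, lines joining libraries of the same replicate number. Ace is lowest in replicate 2 on each day, at no more than 0.0425 FPKM.

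Atp6ap2, the (pro)renin receptor (chromosome X, 12587801 to 12617049, plus strand), was the only one of the 7 genes above 40 FPKM in every tissue and passage 2 sphere library. It stood at 46.1, 46.2 and 47.3 FPKM at E17.5, 55.5, 55.2 and 58.2 at E19.5, and 54.6, 66.4 and 75.6 in adult LG, with 66.6 to 113 FPKM in spheres and 1438 to 2073 reads behind each sphere value. E19.5 was above E17.5 without overlap, 1.21 times on average; the log2 difference of 0.27 (95% interval -0.06 to 0.60) did not pass over the 9 tissue libraries (limma adjusted p = 0.439) and passed over the 6 embryonic libraries alone (0.0411; 0.0411 to 0.956 over 15 alternatives). In all, 5 of the 7 genes had embryonic groups that did not overlap, beside 35.1% of all genes tested; 3 were higher and 2 lower at E19.5, beside 19.8% and 15.3%. Against adult LG, groups that did not overlap numbered 5 of 7 at E17.5 (59.5% of all genes) and 3 of 7 at E19.5 (58.8%), from which nothing is read since this contrast chose the genes. Day 7 spheres and adult LG did not overlap for Agtr1a and Ace (52.4% of all genes).

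The order of Atp6ap2 in embryonic and adult LG depended on the scale. As deposited, the log2 differences from adult LG were -0.47 at E17.5 and -0.20 at E19.5; per recovered reads they were 0.52 and 0.68, because adult replicates 1 and 2 then fell to 20.5 and 25.9 while replicate 3 stood at 68.5. On that scale the embryonic libraries (47.4 to 55.2) lay between the adult ones. Day 7 spheres and adult LG differed by 0.09 on the log2 scale (95% interval -0.40 to 0.57; limma adjusted p = 0.757), by -0.03 without adult replicate 1, and by 1.19 with limma-voom on recovered reads, which passed (adjusted p = 0.0468).

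**Figure D4:**
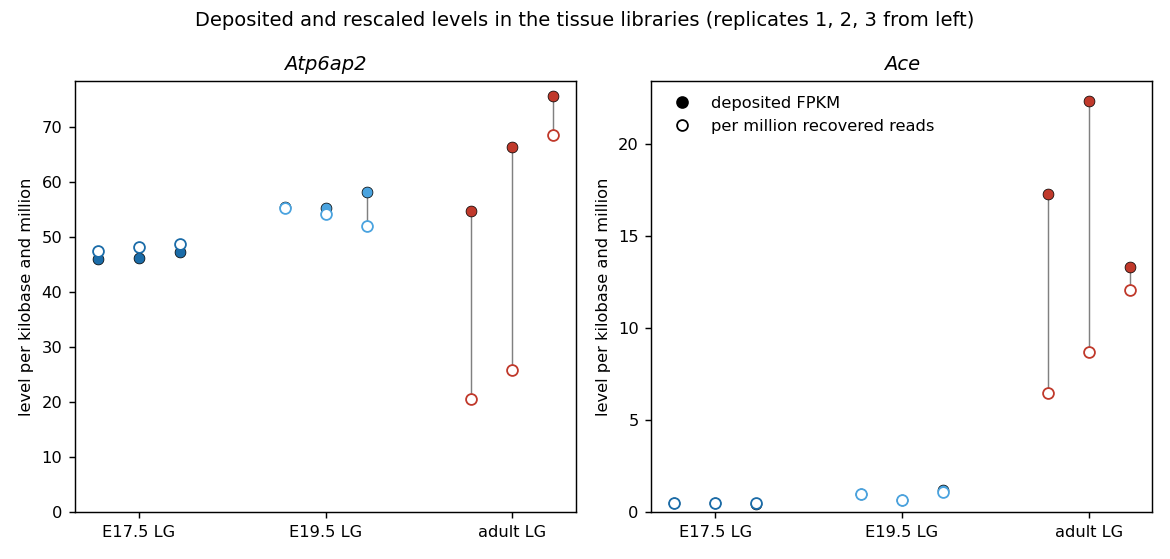
Atp6ap2 and Ace in the 9 tissue libraries as deposited FPKM (filled) and per recovered reads (open), joined by a line for each library; y axes start at 0. Adult replicates 1 and 2 drop from 54.6 and 66.4 to 20.5 and 25.9 for Atp6ap2, while Ace stays above both embryonic groups on either scale.

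During sphere culture Atp6ap2 showed no difference past the spread. The 2 libraries of day 5 held 70.9 and 113 FPKM and the 3 of day 7 held 69.9, 70.2 and 67.3. Those of day 10 held 81.6, 72.9 and 91.5 FPKM, and those of day 14 held 88.8, 66.6 and 78.9. Day 14 and day 7 overlapped, with a log2 difference of 0.16 (95% interval -0.19 to 0.52; limma adjusted p = 0.721). In that comparison limma called 0 of 15744 genes (0%), with 1557 at an unadjusted p under 0.05, and limma-voom also called 0. The slope over culture days was -0.004 per day on the log2 scale (95% interval -0.05 to 0.04, limma adjusted p = 0.946). In that fit 334 of 15584 genes (2.14%) passed, 101 rising and 233 falling (111 and 160 on recovered reads). Neither fit paired the spheres by replicate number, and with a replicate block 783 genes passed in the slope. Over all alternatives, the block among them, the limma or limma-voom adjusted p for Atp6ap2 was 0.493 to 0.905 for day 14 against day 7. For the slope it was 0.614 to 0.956.

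Set in order of their mean level, E17.5, E19.5 and adult LG were separate neighbours for Agtr2, and adult LG overlapped the spheres. For Agtr1a the order was E19.5, E17.5, adult LG and spheres, with no overlap between these neighbours. For Ace it was adult LG, E19.5 and E17.5 without overlap, and E17.5 then overlapped day 14 spheres. For Atp6ap2 the neighbours overlapped from day 5 spheres down to E19.5 LG, and E19.5 and E17.5 LG did not.

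The genes most like each of these in pattern were taken by the Pearson correlation of log2(FPKM + 1) over the 20 tissue and passage 2 libraries, among the 10663 genes whose mean reached 1 FPKM; libraries of a group are not independent points. For Agtr2 they were Bex1, Gm3257, Bex4, Prss35 and Rtl3 (r of 0.9992 to 0.9995), with 382 genes over 0.95. Bex4 and Rtl3 had E17.5 means of 110 and 91.7 FPKM, and Agtr2 exceeded all 5. For Agtr1a they were B3galnt1, Cacng7, Klhl4, Foxd3 and Itga11 (0.9928 to 0.9951). For Ace they were Egf, Il15ra, 9130230L23Rik, Gpd1 and Slc46a3 (0.9846 to 0.9896), and Egf, the epidermal growth factor gene, stood at a mean of 36.8 FPKM in adult LG against 0.652 at E17.5. For Atp6ap2 they were Igsf8, Atp6v0c, Nceh1, Ctsa and Ephx1 (0.8955 to 0.9107), none over 0.95; Atp6v0c is a subunit of the same V-ATPase.

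Among other genes of angiotensin processing, most of those tested differed between embryonic and adult LG, and 1 differed between the embryonic ages. Of 23 further pathway genes found in the tables, 15 passed the filter in the tissue fit. In E17.5 LG 7 of them exceeded adult LG and 4 lay below it, and in E19.5 LG the counts were 8 and 4 (limma adjusted p under the threshold), with median log2 differences of 0.44 and 0.53 beside 0.05 and 0.09 over all genes. In these comparisons 10039 (54%) and 10077 (54.2%) of 18578 genes passed, 5405 and 5637 of them higher, and on recovered reads 8504 and 8083 were higher against 2163 and 2092 lower. The 11 of 15 and 12 of 15 pathway genes are to be read beside these shares. The list was made with earlier results of these data known, so its calls and p-values against adult LG are descriptive.

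The largest of these differences were in 4 proteases stored in the granules of mast cells or other myeloid cells, some of which can form angiotensin II without ACE. Cma1, a chymase gene, stood at 815 to 982 FPKM at E17.5 and 995 to 1466 at E19.5, against 2.70, 9.10 and 15.6 in adult LG, log2 differences of 6.71 and 7.11 (limma adjusted p = 9.73e-06 and 8.3e-06). Cpa3, a mast cell carboxypeptidase that trims angiotensin I, stood at 692 to 942 and 946 to 1379 FPKM, against 2.19, 4.99 and 9.85 in adult LG. Mcpt4, another chymase gene, stood at 158, 163 and 246 FPKM at E17.5 and at 1047, 800 and 1005 at E19.5, against 11.7, 31.9 and 36.4 in adult LG. Ctsg, the gene of cathepsin G, stood at 8.03 to 13.6 and 12.5 to 15.8 FPKM and was listed at 0 in all adult and sphere libraries. In spheres of passage 2 Cma1 was at most 0.657 FPKM and Cpa3 and Mcpt4 at most 0.159 and 0.122.

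Mcpt4 was the 1 pathway gene that rose from E17.5 to E19.5, by 2.35 on the log2 scale (SE 0.39; limma adjusted p = 0.0288). The adjusted p was 0.122 on recovered reads, and the call was also lost when any of the 6 embryonic libraries was left out. Cma1, Cpa3 and Mcpt4 are themselves 3 of the 5 mast cell markers used here; of the other two, Kit, which other cell types also express, stood at 18.3 to 33.0 FPKM in embryonic LG and 15.8 to 59.6 in adult LG, and Tpsb2 at no more than 0.288 FPKM in any tissue library. The whole list summed to 1683 to 3875 FPKM in embryonic LG, 32.4 to 121 in adult LG and 0.793 to 6.5 in passage 2 spheres. Numbers of mast cells and RNA per mast cell cannot be told apart here.

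Other peptidase genes were also higher in embryonic than in adult LG, by less. Mme, the gene of neprilysin, which can cleave angiotensin I, stood at 27.0 to 35.4 FPKM in embryonic and 12.0 to 23.8 in adult LG, log2 differences of 0.77 and 1.01 (adjusted p = 0.0192 and 0.0055 by limma). Prep, a prolyl endopeptidase gene, was higher in the embryo by 0.85 and 0.53, and Hsd11b2, whose enzyme inactivates glucocorticoids beside the mineralocorticoid receptor, by 1.57 and 1.69 on the log2 scale. Prcp, the gene of prolylcarboxypeptidase, passed at E19.5 only (0.59; limma adjusted p = 0.0495), and the E17.5 value was 0.44 (adjusted p = 0.124). On recovered reads Prcp passed at both ages, by 0.805 at E17.5 and 0.879 at E19.5 (limma adjusted p = 0.0355 and 0.0261). Between the embryonic ages it differed by 0.151 as deposited and did not pass (limma adjusted p = 0.846).

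The 4 pathway genes lower in the embryo were Ctsd, Mtus1, Rnpep and Thop1. Ctsd, the aspartic protease cathepsin D, stood at 78.6 to 85.2 and 108 to 123 FPKM at E17.5 and E19.5 against 190 to 248 in adult LG (-1.48 and -0.96), and Mtus1, whose product binds the type 2 receptor, at 4.82 to 5.27 and 4.06 to 5.83 FPKM against 9.07 to 11.9 (-0.94 and -1.01). On recovered reads Ctsd, Mtus1 and Rnpep no longer passed, and Rnpep, an aminopeptidase gene, turned from -0.66 and -0.54 to 0.23 and 0.25. Thop1, the thimet oligopeptidase gene, was lower on both scales (-1.04 and -1.22 as deposited, -0.44 and -0.64 on recovered reads).

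**Figure D5:**
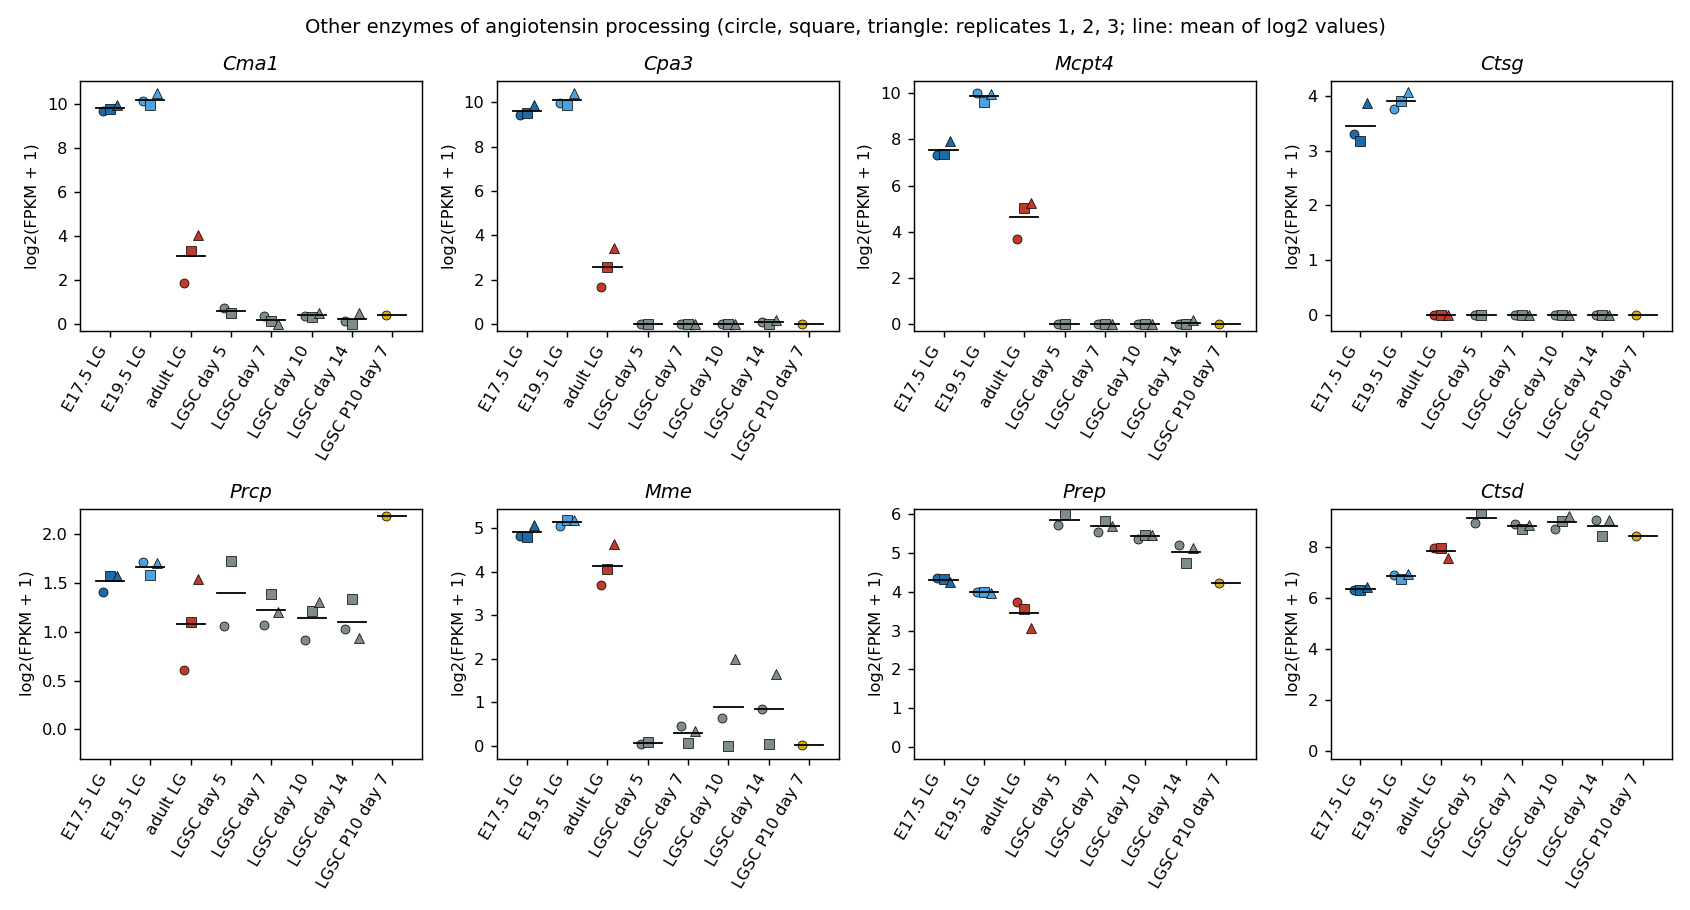
log2(FPKM + 1) of 8 other enzymes of angiotensin processing in all 21 libraries, by group; points are libraries, marker shape gives the replicate number, and lines are means of the log2 values. Cma1, Cpa3, Mcpt4 and Ctsg are highest in embryonic LG, Prcp lies between 0.528 and 3.55 FPKM in all libraries, and Prep and Ctsd are highest in passage 2 spheres.

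In day 7 spheres Mme, Cma1, Cpa3, Mcpt4 and Mtus1 fell from their adult LG levels, and Prep and Ctsd rose. Between day 7 spheres and adult LG 15 pathway genes passed the filter, of which 2 rose and 5 fell, with a median log2 difference of -0.02 beside -0.08 over all genes; 7 of 15 stands beside 35.2% of all genes. Mme fell by 3.85 (limma adjusted p = 0.000359) to 0.356, 0.0443 and 0.271 FPKM, and Cma1, Cpa3, Mcpt4 and Mtus1 fell by 2.91, 2.56, 4.64 and 1.88. Of these, Mme, Cma1, Cpa3 and Mcpt4 reached the filter of 0.5 FPKM in this fit through their adult values alone. They could be called only as lower, which also bears on the 7 of 15. Prep rose by 2.22 (limma adjusted p = 0.00125), from 12.4, 10.8 and 7.42 to 45.1, 56.1 and 50.7 FPKM, and Ctsd by 1.01 (adjusted p = 0.00969). On recovered reads the split was 4 higher and 4 lower, and Mtus1 no longer passed. Over culture days Prep was the 1 of 11 tested pathway genes that changed, beside 334 of 15584 genes (2.14%) in all. Prep fell by 0.093 per day on the log2 scale (limma adjusted p = 0.0224), from 51.7 and 62.7 FPKM at day 5 to 36.2, 25.5 and 33.8 at day 14. This call was lost without either day 5 library or without day 14 replicate 3. The fit did not pair the spheres by replicate number. With a replicate block 1 of the 11 pathway genes was likewise called, as falling.

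The V-ATPase subunits beside which Atp6ap2 acts showed the same dependence on scale. Of 22 subunit genes 17 were tested in tissue; beside adult LG, E17.5 LG had 1 subunit that was higher and 8 that were lower, and E19.5 LG had 3 and 5, with median log2 differences of -0.45 and -0.20 beside 0.05 and 0.09 over all genes. The 9 of 17 and 8 of 17 called stand beside 54% and 54.2% of all genes. On recovered reads 5 were higher at E17.5 and 7 at E19.5, with 0 lower at either age, and with medians of 0.27 and 0.62 beside 0.57 and 0.52 over all genes. Atp6v0e2 was higher in the embryo on both scales, at 11.8 to 22.5 FPKM against 1.19 to 1.22 in adult LG (2.61 and 3.19 on the log2 scale). Atp6v1b1, a subunit of proton-secreting epithelial cells, stood at 4.31, 5.26 and 9.30 FPKM at E17.5 and 37.3, 35.8 and 40.9 at E19.5, a rise of 2.48 (limma adjusted p = 0.023). This call was lost on recovered reads (adjusted p = 0.128), with limma-voom (0.137) and without any 1 of the embryonic libraries other than E17.5 replicate 3 (0.0646 to 0.117). From adult LG to day 7 spheres Atp6v1b1 fell by 4.52 (adjusted p = 0.000523 by limma), to 0.0255 to 0.146 FPKM. It reached the filter of 0.5 FPKM in this fit through its adult values alone and could be called only as lower. Of 18 subunits tested between day 7 spheres and adult LG, 2 were higher and 3 lower, or 7 higher and 1 lower on recovered reads. The 5 of 18 stand beside 35.2% of all genes, and over all genes the split turned the same way, from 2507 higher and 3731 lower to 5410 and 1882.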

How the data were processed

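RNA of LG and LGSC spheres had been made into NEBNext Ultra libraries by the authors and sequenced as 150-bp paired-end reads, and the submitters' notes name CASAVA 1.8, HISAT2 2.0.5, featureCounts 1.5.0-p3 and build NCBIM37. Each deposited table gives gene identifiers with FPKM values, a unit inferred from the values; the step from reads to FPKM is not given in the sources used here. Of 24 samples 21 were used, grouped by their labels. Symbols came from GENCODE M21, which held 52489 of 52636 Ensembl identifiers; 23 of 24 pathway genes were matched, and 1 further gene of the pathway is not reported here. The tables also list 11226 assembled loci. Reads were recovered from the FPKM steps and came out whole for 92.6% to 93.6% of genes (tolerance 0.01, genes of at most 1000 reads) in the 20 libraries of passage 2 and tissue. The passage 10 library was made against another gene list and entered no test: of 1011 genes with at least 50 FPKM there, 121 (12.0%) were at 0 in all 3 day 7 libraries of passage 2.

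Tests used limma 3.58.1 (R 4.3.3; eBayes with trend, two-sided) on log2(FPKM + 1), keeping genes whose mean over the libraries fitted reached 0.5 FPKM, Benjamini-Hochberg adjusted over all of them, with a threshold of 0.05. The study's own test, DESeq2, needs counts and was not repeated. Alternatives were a pseudocount of 0.1, no filter, scaling to recovered reads, limma-voom, a replicate block, other libraries in a fit, log2 of the culture day, and each library left out. Same-numbered libraries deviated together in spheres (correlations of 0.26 to 0.72 over 15 pairs) and not elsewhere (-0.08 to 0.07). The labels' numbers were thus read as pairs in spheres. The main sphere tests did not include this pairing, which entered only through the replicate block. The rule for named genes gave the 7 genes always, pathway genes past the threshold or with a group mean of at least 10 FPKM, at most 4 V-ATPase genes, and the 5 most alike in pattern. The genes and lists were chosen with earlier results of these data known. Other steps used matplotlib 3.10.9, pandas 2.3.3 and numpy 2.4.6 under Python 3.11.15. Intervals are 95% limma intervals.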

Additional observations from a re-analysis of the deposited data

Results flagged for a closer look

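Of the genes named, 2 had effects against adult LG that differed between the embryonic ages in the test of E19.5 against E17.5. Mcpt4 was higher at E19.5 by 2.35 (limma adjusted p = 0.0288, 3 of 3 libraries above all E17.5 libraries) and Atp6v1b1 by 2.48 (limma adjusted p = 0.023, likewise 3 of 3). On recovered reads the adjusted p was 0.122 for Mcpt4 and 0.128 for Atp6v1b1, and both calls were lost without some 1 of the embryonic libraries (any for Mcpt4, any but E17.5 replicate 3 for Atp6v1b1). Of 12 marker lists 9 were also higher at E19.5 without overlap, among them epithelium (330 to 472 FPKM at E17.5 and 758 to 950 at E19.5), mast cell (1683 to 2194 and 2768 to 3875), adipocyte (63.5 to 65.0 and 111 to 140) and myoepithelial markers (140 to 297 and 1011 to 1098, nearly all from Acta2). Their part was not tested.

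The passage 10 sphere library, which entered no comparison, held signal above 3 reads for 3 of the 7 genes: Atp6ap2 at 22.5 FPKM (1402 reads), Ace at 0.231 FPKM (29 reads) and Mas1 at 0.0802 FPKM (5 reads). Its gene list differed from that of the other libraries, so that passage and gene list cannot be told apart.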

How the results depend on the processing

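Between E19.5 and E17.5 LG, 323 genes passed, against 162 with a pseudocount of 0.1, 170 on recovered reads, 40 with limma-voom, 2144 in the 6 embryonic libraries alone and 50 to 1736 with 1 library left out (1736 without adult replicate 3). Pathway genes passing numbered 0 on recovered reads, 3 in the 6 libraries and 0 to 3 with 1 library left out. The log2 difference of Agtr2 (-0.48 in the 6 libraries, where it passed) ranged from -0.57 to -0.43, and that of Atp6ap2 was 0.27 in the 6 libraries, where it passed. In the slope, 82 genes passed with no filter and 11 to 384 with 1 library left out (11 without day 5 replicate 1), pathway genes 0 to 1; the Atp6ap2 slope was 0.017 on recovered reads, 0.018 with limma-voom and -0.014 to 0.02 with 1 library left out. Between day 7 spheres and adult LG, 3770 to 8135 genes passed with 1 library left out, limma-voom called 11 pathway genes, Agtr1a ranged from -1.72 to -1.19 (-3.71 with a pseudocount of 0.1 and -4.86 with limma-voom, both passing), and Atp6ap2 from -0.034 to 0.196 (1.19 with limma-voom). Against adult LG, Atp6ap2 turned to 0.52 and 0.68 on recovered reads and to 0.51 and 0.67 with limma-voom. The causes were not tested.

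With the replicate number as a replicate block, 783 genes passed in the slope over culture days, where the numbers pair the spheres, and 100 genes and 0 pathway genes between E19.5 and E17.5 LG, where they do not; the block changed no other call of the 7 genes or of the pathway count of a comparison by over 1.5 times. Depth limits Agtr1b, Mas1 and Ace outside adult LG, which rest on few reads, and a gene listed at 0 may be a failed estimate.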

Other observations

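Several pathway genes near 0 in the 20 libraries of tissue and passage 2 spheres had sizeable values in the passage 10 library. Dpp3, a dipeptidyl peptidase gene, was listed at 0 in all 20 and stood at 51.6 FPKM in passage 10. Agtrap, whose product binds the type 1 receptor, was at most 0.107 FPKM in the 20 and at 6.63 in passage 10. Ctsa stood at 24.0 FPKM in passage 10 against 1.32 to 3.25, and Anpep at 13.6 against at most 0.666. Among V-ATPase genes Atp6ap1 stood at 58.7 FPKM in passage 10 against 0.620 to 3.56, and Atp6v1a at 53.6 against 0.567 to 4.46. These genes were chosen after their values were seen, and passage and gene list cannot be told apart here.

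Of the other pathway genes, Klk1, a kallikrein gene, stood at 18.7 FPKM in adult replicate 2 and at no more than 0.232 FPKM in any other library of the 20, and Mrgprd, a receptor of an angiotensin fragment, was listed at 0 in all 21. Enpep, which trims angiotensin II, was at 0.176, 0.268 and 0.724 FPKM in adult LG, 0.0797 to 0.22 in embryonic LG and 0 in passage 2 spheres.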
